A study of Mus musculus with 30 samples.

Results

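Splenic B cells from aged Ikzf3 mutant mice that were not the leukaemic cells (non-CLL B cells) were compared with those of aged wild-type animals. CLL is chronic lymphocytic leukaemia, a cancer of mature B cells. The comparison used the 4 libraries labelled as B cells of mutant mice and the 3 labelled wild type, 7 of the 30 samples of the series. Genes were kept when their mean was at least 20 TPM (a transcript level scaled to gene length and library total) in either group, because low values are higher throughout in the mutant libraries. This left 7503 of 22781 genes. Of these, 6124 reached the minimum in both groups, 1251 in the non-CLL group only and 128 in the wild-type group only. The genes nearest to the minimum were Ciao1 and Mtap1s, left out at means of 19.9969 and 19.9978 TPM, and Phc1 and Cacna1e, kept at 20.0024 and 20.0039 TPM.

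The mice were C57BL/6 and 15 to 18 months old, and the mutant animals carried a conditional knock-in of the Ikzf3 L161R substitution that is restricted to B cells. The Cre line behind that restriction is not given in the sources used here. Non-CLL libraries 2, 4 and 5 came from heterozygous mice (Ikzf3 fl/+) and library 6 from a homozygous mouse (Ikzf3 fl/fl), so the group mixes 2 genotypes. The wild-type libraries 1, 2 and 3 carried no mutation. B cells were taken from the spleen with magnetic beads to a purity of at least 85%, which leaves room for other cells. The non-CLL cells came from mice that also gave CLL cells, according to the design, and 5 CLL libraries are set beside them here as levels only, because a CLL comparison would use the same wild-type libraries. The labels do not say in words that each library is a separate animal, so the p-values measure the spread between these libraries.

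The product of Ikzf3 is Aiolos, which belongs to the Ikaros family of zinc-finger proteins, binds DNA at GGGAA core sites and works with the NuRD chromatin remodelling complex. In mature B cells Aiolos restrains signalling from the B cell receptor. Signalling through that receptor switches on immediate early genes within minutes, and these genes encode short-lived factors such as the Fos and Jun proteins of AP-1, together with phosphatases that shut the signal down again.

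Low values differed with the group, so background and group cannot be told apart. The median over 1106 olfactory receptor genes, which B cells are not known to use, was 7.16 to 9.24 TPM in the non-CLL libraries and 0, 0.745 and 0 TPM in wild-type libraries 1, 2 and 3. Between 92.6% and 98.6% of genes reached 1 TPM in the non-CLL libraries, and between 47.8% and 62.6% in the wild-type libraries. Within the groups, wild-type library 2 stood apart, with correlations of 0.802 and 0.831 across genes against 0.950 between wild-type libraries 1 and 3. In it Ms4a1 (CD20) was at 617 TPM, Cr2 at 25.4 TPM and Fcer2a at 9.33 TPM, against 3610, 1274 and 536 TPM in library 1 and 3848, 776 and 404 TPM in library 3. The same library held the Y-linked Ddx3y at 17.4 TPM beside Xist at 38.1 TPM, whereas Xist without Ddx3y above 0.0420 TPM was seen in the other 6. Non-CLL library 6 correlated with its group at 0.774 to 0.828, against up to 0.929 among the others. Depth is unknown, since the files hold TPM and no read counts.

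Ikzf3 itself was at 651, 513, 354 and 525 TPM in non-CLL libraries 2, 4, 5 and 6 and at 407, 932 and 463 TPM in the wild-type libraries. The groups overlapped (log2 difference of -0.17, SE 0.33, adjusted p = 0.836, limma with Benjamini-Hochberg adjustment). Its sign turned in several alternative fits, including 0.20 without wild-type library 2. A substitution that leaves the transcript in place is not checked by these levels.

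Across the 7503 genes, 169 were higher in non-CLL B cells (2.25%) and 30 were lower (0.400%) at an adjusted p under 0.05 in a limma test on log2(TPM + 1). Folds on this scale understate the change of low genes. All 199 had groups that did not overlap, which 10.8% of all tested genes showed in the higher direction and 6.86% in the lower. The median log2 difference over all tested genes was 0.04. Of the 169 higher genes, 146 reached the 20 TPM minimum through the non-CLL mean alone (11.7% of the 1251 that did) and so had to differ, and 116 had a non-CLL mean under 40 TPM. Among the 6124 genes with at least 20 TPM in both groups, 23 were higher (0.376%) and 28 lower (0.457%). When only those 6124 genes were fitted and adjusted together, 8 higher and 4 lower genes were called, Ier2 the only immediate early gene among them. The others named here were Sfi1, Rn45s, Snord22, Snord57, Snora28 and Apoe on the higher side, and Rps25, Dnase1l3, Psmd11 and Ube2v1 were the lower ones. The account below leads with the 51 genes. They include the immediate early genes Ier2, Jun, Junb and Cd69, small nucleolar RNAs and Apoe on the higher side, and Dnase1l3, Cd36, ribosomal protein and proteasome genes on the lower side.

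**Figure D1:**
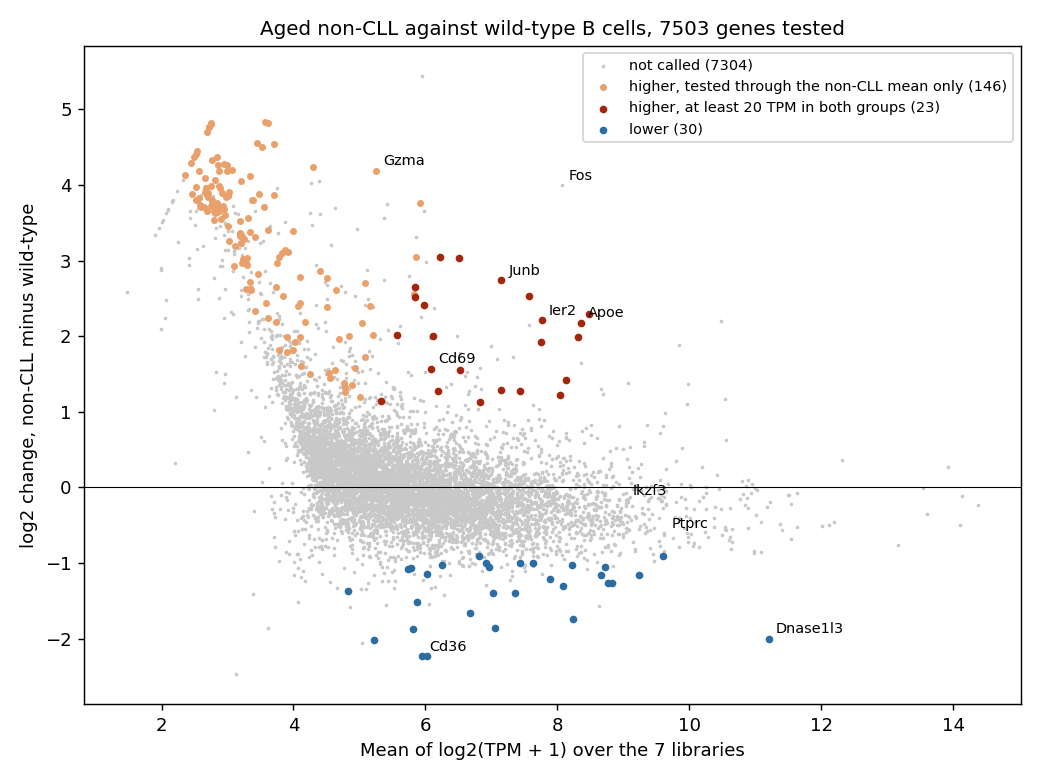
Each point is 1 of the 7503 tested genes, with its mean log2(TPM + 1) over the 7 libraries on the horizontal axis and its log2 difference, non-CLL minus wild-type, on the vertical axis. The 146 higher genes that passed the minimum through the non-CLL mean only lie mostly at the low end, while the 23 higher genes with at least 20 TPM in both groups and the 30 lower genes reach higher levels.

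The calls depended on single libraries. Without wild-type library 2 the counts were 443 higher and 140 lower, and without non-CLL library 4 they were 12 and 0. Leaving out non-CLL library 2 gave 20 and 1, non-CLL library 6 gave 46 and 11, wild-type library 1 gave 28 and 3, and wild-type library 3 gave 14 and 2. Only 9 genes were called in all 7 fits that left out 1 library, among them Ier2, Sfi1, Rn45s, Snord22, Snord57, Apoc2, 1810046K07Rik and 3110070M22Rik. Of these, Apoc2, 1810046K07Rik and 3110070M22Rik passed the minimum through the non-CLL mean only. After each library's olfactory median was subtracted and the rest rescaled, 23 of the 169 higher and 5 of the 30 lower genes were still called.

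Of the 27 immediate early genes listed, 17 were tested, 6 rose (Ier2, Jun, Junb, Klf4, Dusp1 and Cd69) and none fell. Over all tested genes 2.25% were called higher and 0.400% lower. The median log2 difference over the 17 was 1.70, beside 0.04 over all genes. At an unadjusted p under 0.05, 14 of the 17 were higher, beside 11.4% of all genes higher and 6.24% lower. Of the 17, 6 reached the minimum through the non-CLL mean only, Klf4 and Dusp1 among them, and so had to be higher. They count toward the median and the unadjusted number given here. The number that rose was 13 without wild-type library 2, and 1 or 2 when any other library was left out. After background subtraction it was 2, Ier2 and Junb.

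For 4 of these 6 genes a promoter was matched in the RefSeq table of build GRCm38.p6, the assembly behind mm10, and these are shown because the genes rose together and Aiolos binds GGGAA cores. Each is the 250 bases before the gene's start, read 5′ to 3′ on the minus strand, at chr4:95052223-95052472 for Jun, chr8:84978749-84978998 for Junb, chr4:55532476-55532725 for Klf4 and chr17:26508473-26508722 for Dusp1. Capitals mark GGGAA or, for the other strand, TTCCC.
Jun: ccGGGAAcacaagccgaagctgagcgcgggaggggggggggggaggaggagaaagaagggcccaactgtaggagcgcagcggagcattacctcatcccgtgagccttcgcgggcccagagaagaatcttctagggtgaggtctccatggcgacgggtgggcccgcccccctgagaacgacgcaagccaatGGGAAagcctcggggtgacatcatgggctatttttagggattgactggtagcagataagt
Junb: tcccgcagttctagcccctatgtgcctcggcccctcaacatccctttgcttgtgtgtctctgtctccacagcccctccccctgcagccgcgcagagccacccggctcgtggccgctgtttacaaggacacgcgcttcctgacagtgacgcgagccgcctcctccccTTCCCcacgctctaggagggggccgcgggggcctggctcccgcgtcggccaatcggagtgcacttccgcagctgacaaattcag
Klf4: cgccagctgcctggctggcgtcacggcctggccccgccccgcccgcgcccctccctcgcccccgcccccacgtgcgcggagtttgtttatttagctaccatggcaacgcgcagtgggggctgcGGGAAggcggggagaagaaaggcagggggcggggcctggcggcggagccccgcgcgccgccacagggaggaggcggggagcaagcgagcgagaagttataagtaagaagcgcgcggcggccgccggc
Dusp1: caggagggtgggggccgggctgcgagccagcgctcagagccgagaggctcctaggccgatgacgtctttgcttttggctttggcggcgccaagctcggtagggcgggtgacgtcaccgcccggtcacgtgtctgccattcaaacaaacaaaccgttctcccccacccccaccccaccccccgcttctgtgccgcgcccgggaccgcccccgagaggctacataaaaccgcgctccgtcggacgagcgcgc
The core GGGAA, searched on both strands, occurred 2 times in the Jun promoter, 1 time in Junb, 1 time in Klf4 and 0 times in Dusp1. It was present in 56.2% of all 32851 promoters of this length. The letters TGACG, the core of cyclic AMP response elements and also searched on both strands, occurred 3 times in Dusp1, 1 time in Junb, 1 time in Klf4 and 0 times in Jun, and were present in 17.8% of all promoters and in 30.7% of the 4285 matched promoters of tested genes, where GGGAA was present in 57.9%. A TGACG match can share its last base with a GGGAA match, and a match describes the letters only.

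Ier2, a nuclear immediate early factor (chr8:84661331-84662852), was at 397, 570, 371 and 363 TPM in non-CLL libraries 2, 4, 5 and 6 and at 67.9, 101 and 105 TPM in the wild-type libraries. Every non-CLL library was above every wild-type library, and wild-type library 2 did not stand out for this gene. The rise was 4.63-fold (log2 difference 2.21, SE 0.25, adjusted p = 0.00726, limma with Benjamini-Hochberg adjustment). It was called in all 7 leave-one-out fits and after background subtraction (adjusted p = 0.00612).

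Junb, an AP-1 subunit, was at 262, 411, 381 and 256 TPM in the non-CLL libraries and at 29.3, 130 and 26.7 TPM in the wild-type libraries. Its partner Jun was at 198, 198, 146 and 196 TPM against 9.02, 94.4 and 10.4 TPM. For both genes wild-type library 2 was the highest of its group and still below all 4 non-CLL libraries. Junb rose 6.69-fold (log2 difference 2.74, SE 0.50, limma adjusted p = 0.0310). Jun rose 8.29-fold (log2 difference 3.05, SE 0.68, limma adjusted p = 0.0499). Both calls were lost when any library except wild-type library 2 was left out, with adjusted p from 0.0555 to 0.129 for Junb and from 0.0747 to 0.207 for Jun. Without wild-type library 2 the adjusted p were 0.000136 and 2.18e-05.

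Fos, the other main AP-1 subunit, was at 811, 973, 747 and 1012 TPM in the non-CLL libraries and at 12.3, 411 and 29.5 TPM in the wild-type libraries. The groups did not overlap, yet the spread among wild-type libraries left it uncalled (log2 difference 4.00, SE 0.93, limma adjusted p = 0.0575). Fosb was at 106, 80.1, 32.1 and 79.7 TPM against 0.671, 35.0 and 0.232 TPM, so that the groups overlapped through wild-type library 2 (log2 difference 4.04, limma adjusted p = 0.0766). In the fit without wild-type library 2, the adjusted p was 2.18e-05 for Fos and 0.000233 for Fosb.

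Dusp1 encodes a phosphatase that inactivates MAP kinases. It was at 45.4, 58.2, 68.0 and 38.1 TPM in the non-CLL libraries and at 5.17, 19.4 and 2.52 TPM in the wild-type libraries, a rise of 6.84-fold (log2 difference 2.77, SE 0.53, limma adjusted p = 0.0329). Klf4, a Kruppel-like factor linked to lymphocyte quiescence, was at 39.8, 36.9, 28.5 and 28.5 TPM against 1.41, 8.25 and 2.16 TPM, a rise of 8.25-fold (log2 difference 3.04, SE 0.53, limma adjusted p = 0.0225). Both lay above the non-CLL background in every non-CLL library, and neither was called after background subtraction, with adjusted p of 0.100 and 0.133. Dusp1 kept its call only without wild-type library 2 (adjusted p = 0.000831, others 0.0625 to 0.116). Klf4 kept it without wild-type library 2 (0.00116) or non-CLL library 5 (0.0453), and reached 0.0596 to 0.0929 without another.

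Cd69, a surface marker of early lymphocyte activation, was at 82.2, 136, 177 and 66.1 TPM in the non-CLL libraries and at 36.1, 30.6 and 39.9 TPM in the wild-type libraries. It rose 2.97-fold (log2 difference 1.57, SE 0.34, limma adjusted p = 0.0471), with the homozygous library 6 the lowest of its group. Leave-one-out fits kept the call without non-CLL library 6 (0.0451) or wild-type library 2 (0.0423), and otherwise gave 0.0625 to 0.141. Zfp36, which encodes an RNA-binding protein that destabilises cytokine mRNAs, was not called at 170, 265, 275 and 201 TPM against 91.0, 30.0 and 115 TPM. Myc was at 60.3, 115, 131 and 64.8 TPM against 116, 157 and 84.7 TPM, with overlapping groups.

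**Figure D2:**
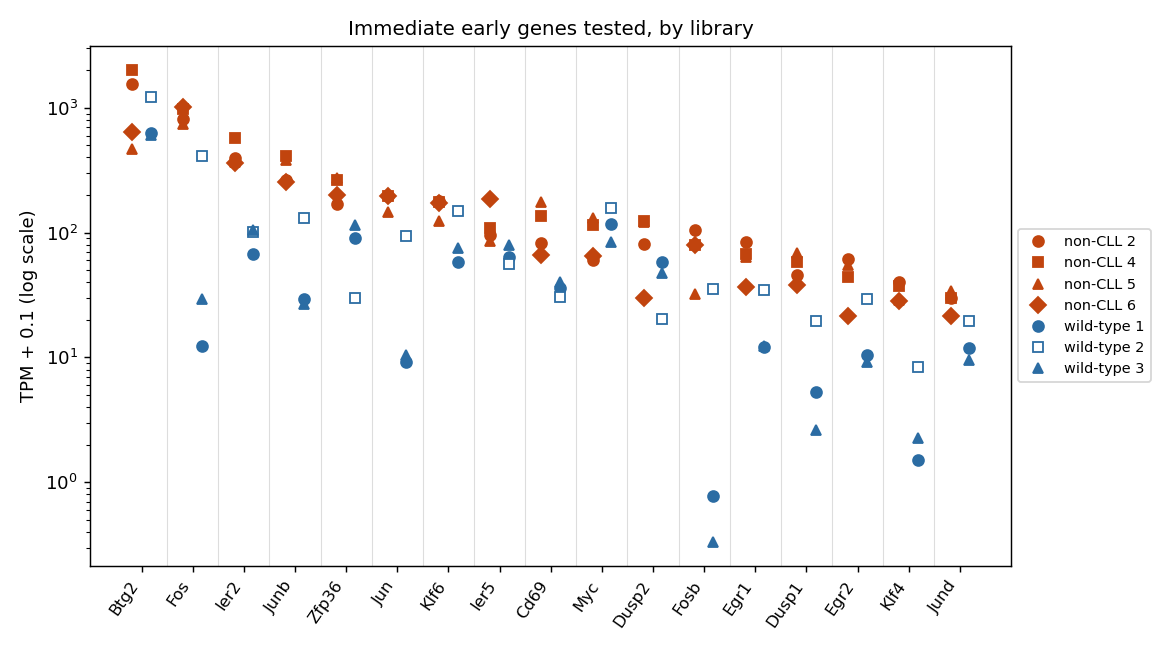
Level of each of the 17 tested immediate early genes, as TPM + 0.1 on a log axis, in the 4 non-CLL libraries (orange) and the 3 wild-type libraries (blue), ordered by non-CLL mean. Wild-type library 2, drawn as an open square, lies nearer to the non-CLL libraries than the other wild-type libraries do for Fos, Jun, Junb, Fosb, Dusp1 and Klf4, but not for Ier2 or Cd69.

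The regulators of G protein signalling Rgs1 and Rgs2, which damp chemokine receptor signals, both rose and both passed the minimum through the non-CLL mean only. Rgs1 was at 98.7, 29.1, 47.5 and 40.2 TPM against 3.66, 10.4 and 4.93 TPM (log2 difference 2.86, SE 0.47, limma adjusted p = 0.0207). Rgs2 was at 63.9, 57.0, 90.0 and 59.3 TPM against 13.9, 11.9 and 23.2 TPM (log2 difference 2.01, SE 0.30, limma adjusted p = 0.0156). They were the only calls among 24 tested homing and adhesion genes, whose median was 0.55. Pim2, a survival kinase, was at 35.6, 46.3, 71.6 and 79.9 TPM against 26.0, 10.3 and 15.3 TPM (log2 difference 1.73, limma adjusted p = 0.0474), and was the only call among 26 cytokine receptor and JAK-STAT genes. Pim2 also passed the minimum through the non-CLL mean only, so Rgs1, Rgs2 and Pim2 had to be higher. Of all such genes 11.7% were called higher. Pim2 kept its call only without wild-type library 2 (0.0452, others up to 0.163). Rgs1 kept its call only without non-CLL library 5 or wild-type library 2, and reached up to 0.0874 (without wild-type library 3). Rgs2 lost its call without non-CLL library 2, non-CLL library 4 or wild-type library 1, with up to 0.0625 (without non-CLL library 4). After background subtraction the adjusted p was 0.0342 for Rgs2, 0.0842 for Rgs1 and 0.154 for Pim2.

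Dnajb9, a chaperone cofactor of the endoplasmic reticulum, was at 96.8, 98.1, 114 and 116 TPM against 33.2, 49.7 and 48.5 TPM (log2 difference 1.28, limma adjusted p = 0.0281). Gnb2, a G protein beta subunit, was at 379, 451, 324 and 373 TPM against 151, 207 and 137 TPM (log2 difference 1.22, limma adjusted p = 0.0304). Neither gene's groups overlapped. Dnajb9 and Gnb2 each kept the call only without non-CLL library 5 or wild-type library 2, and reached 0.109 and 0.141 otherwise. Both genes were singled out after their values were seen.

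Small nucleolar RNAs guide the modification of ribosomal RNA and are cut out of introns of host genes. Of 103 listed, 61 were tested, 9 rose and none fell, beside 2.25% of all tested genes higher. The median log2 difference was 1.29, beside 0.04 over all genes. At an unadjusted p under 0.05, 30 were higher and 1 lower, beside 11.4% and 6.24% of all tested genes. Of the 61, 33 passed through the non-CLL mean only, as did 3 of the 9. Snord22 was at 406, 325, 398 and 405 TPM against 116, 113 and 75.2 TPM (log2 difference 1.93, SE 0.23, limma adjusted p = 0.00726). Its host Snhg1, whose span chr19:8723487-8726326 holds Snord22 at chr19:8725866-8725991, rose too, at 509, 437, 450 and 337 TPM against 162, 210 and 118 TPM (log2 difference 1.43, limma adjusted p = 0.0258). Snhg1 lost its call in 4 of 7 leave-one-out fits, up to 0.129 without wild-type library 3.

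For 3 other small nucleolar RNAs the host gene was not called higher. Snord57 rose from 18.6, 25.6 and 17.4 TPM in wild-type to 103, 95.3, 107 and 202 TPM in non-CLL libraries (log2 difference 2.52, SE 0.31, limma adjusted p = 0.00726), while Nop56, which spans it, was at 84.4, 71.7 and 68.0 TPM and 82.1, 89.3, 155 and 74.0 TPM (log2 difference 0.36, adjusted p = 0.550). Snora28 was at 621, 429, 685 and 590 TPM against 115, 193 and 132 TPM (log2 difference 1.99, limma adjusted p = 0.0104), while its host Eif5 overlapped between groups (log2 difference -0.12, adjusted p = 0.836). Snord34 rose (log2 difference 2.01, limma adjusted p = 0.0304) from within Rpl13a, which fell (log2 difference -1.26, limma adjusted p = 0.0474). Snora28 lost its call only without wild-type library 3 (0.0570). Snord34 lost it in 4 of 7 fits (up to 0.130) and Rpl13a in all but that without wild-type library 2 (up to 0.167). Eif5 turned to a positive sign under background subtraction, quantile normalization or the absence of wild-type library 3. The precursor of ribosomal RNA itself, Rn45s, was at 652, 863, 523 and 837 TPM against 144, 191 and 107 TPM (log2 difference 2.29, SE 0.27, limma adjusted p = 0.00726). Sfi1, which encodes a centrosome protein, was at 452, 383, 318 and 469 TPM against 91.1, 87.0 and 40.9 TPM (log2 difference 2.53, limma adjusted p = 0.00726).

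Of 508 microRNA precursor genes in the list, 82 were tested and 20 rose. All 20, and 71 of the 82, passed through the non-CLL mean only and so had to be higher. Of all such genes 11.7% were called higher. Mir703 was the most abundant named one, at 179, 145, 223 and 70.2 TPM against 25.0, 7.41 and 22.7 TPM (log2 difference 3.05, limma adjusted p = 0.0208). Mir720 and Mir691 were listed at 0 in every wild-type library and at 19.5 to 39.8 TPM and 12.8 to 43.4 TPM in the non-CLL libraries. Mir3473d was at 40.1, 74.1, 34.8 and 31.5 TPM against 4.81, 1.25 and 4.50 TPM (limma adjusted p = 0.0139). Mir703 lost its call without non-CLL library 2, non-CLL library 4 or wild-type library 3, with an adjusted p of up to 0.0749 (without wild-type library 3). Mir3473d lost its call without non-CLL library 2 or non-CLL library 4, with up to 0.0632 (without non-CLL library 4). The median of the 82 was 3.39, and 65 were higher at an unadjusted p under 0.05, beside 11.4% of all tested genes. These values lie over precursor genes, which do not measure mature microRNAs.

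The largest folds belonged mainly to genes near the non-CLL background. The tissue-restricted milk casein Csn1s1, the urinary protein gene Mup5 and the sperm-head gene Cylc2 lay at 13.9 to 37.0 TPM in the non-CLL libraries and at 0 to 2.00 TPM in the wild-type libraries. The 95th percentile of olfactory receptor genes was 13.9 to 27.1 TPM in the non-CLL libraries. With small nucleolar RNA, microRNA and predicted genes left unranked by their symbols, the other uncharacterised or tissue-restricted genes among the 15 largest rises were 3110070M22Rik, LOC100861570, Bc1, Spt1, 1700095A21Rik and 2810442I21Rik. AF357355 was ranked there too, since its symbol does not show that it is annotated as a small nucleolar RNA. All of these genes passed the minimum through the non-CLL mean only and so had to be higher. Of these 3110070M22Rik had the highest level in its lowest non-CLL library, at 46.3, 57.1, 35.0 and 61.0 TPM against 0.346, 1.70 and 0.452 TPM (limma adjusted p = 0.00548). It was also called after background subtraction (0.0149), where Csn1s1 and Mup5 were not (0.133 and 0.160). In CLL library 6 3110070M22Rik was at 52.9 TPM, with an olfactory median of 9.66 TPM. In CLL libraries 1, 2, 4 and 5 it was at 5.76 to 20.7 TPM, with olfactory medians of 1.08 to 2.71 TPM. The part of background in its level was not tested.

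Apoe and Apoc2 both rose. Apoe, a lipid carrier that macrophages make in abundance, was at 850, 799, 475 and 475 TPM against 136, 111 and 172 TPM (log2 difference 2.18, SE 0.29, limma adjusted p = 0.0104). Apoc2, a cofactor of lipoprotein lipase that lies near Apoe on chromosome 7, was at 81.5, 30.3, 64.4 and 133 TPM against 1.85, 2.56 and 3.81 TPM (log2 difference 4.24, limma adjusted p = 0.00726). The groups did not overlap for either gene. Apoc2 passed the minimum through the non-CLL mean only and so had to be higher. Apoe lost its call only without non-CLL library 4 (0.0555). Tyrobp, a signalling adaptor of myeloid and natural killer (NK) cells, was at 143, 123, 68.8 and 221 TPM against 13.4, 46.2 and 20.2 TPM (log2 difference 2.41, limma adjusted p = 0.0345, up to 0.143 without wild-type library 3). Tyrobp kept its call only without non-CLL library 5 or wild-type library 2. The macrophage and neutrophil marker list summed to 453 to 1068 TPM in non-CLL and 85.7 to 539 TPM in wild-type libraries. Background alone would give 165 to 212 and 0 to 17.1 TPM. Of the list's 7 tested members, 6 had a positive log2 difference and 1 a negative difference. Cd68 was at 206, 190, 153 and 410 TPM against 21.4, 123 and 80.6 TPM. Lyz2 was at 35.9, 36.2, 24.6 and 48.2 TPM against 6.73, 37.9 and 96.4 TPM. Below the minimum, C1qb was at 8.71, 5.15, 4.79 and 7.21 TPM against 14.7, 5.90 and 32.4 TPM. The part of this list in these rises was not tested.

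Several transcripts typical of NK and T cells were also higher in the non-CLL libraries. Gzma, a granzyme of NK and cytotoxic T cells, was at 62.6, 152, 75.2 and 409 TPM against 1.55, 14.3 and 8.80 TPM (log2 difference 4.19, SE 0.74, limma adjusted p = 0.0281). Nkg7 was at 22.1, 79.9, 39.6 and 84.7 TPM against 0, 1.49 and 3.05 TPM (log2 difference 4.55, limma adjusted p = 0.0139). The NK receptor gene Ncr1 was at 14.7, 45.5, 25.5 and 150 TPM against 0.266, 2.76 and 3.79 TPM (log2 difference 3.86, limma adjusted p = 0.0387). Library 6, from the homozygous mouse, was the highest for all 3 genes. Of 11 NK markers 5 were tested and 3 rose, and of 17 T cell markers 6 were tested and 3 rose. All 6 of these genes passed the minimum through the non-CLL mean only and so had to be higher. Of all such genes 11.7% were called higher. At an unadjusted p under 0.05, 5 of 5 tested NK markers and 4 of 6 tested T cell markers were higher, beside 11.4% of all tested genes. Of those tested, 4 NK and 3 T cell markers passed through the non-CLL mean only. The T cell genes called were Cd4, Cd8b1 and Cd28, at 14.6 to 54.0 TPM in non-CLL and 0 to 5.61 TPM in wild-type libraries. The defining Cd3e was at 5.50 to 15.0 TPM against 0, 0.281 and 0 TPM, around the non-CLL background. Cd3g was at 204, 24.5, 64.5 and 222 TPM against 0, 596 and 3.56 TPM, highest in wild-type library 2. Of 11 tested dendritic cell markers, 8 were higher at an unadjusted p under 0.05, and 7 passed the minimum through the non-CLL mean only. Only Cox6a2, also a respiratory chain gene, was called, at 26.5, 14.1, 19.7 and 46.4 TPM against 0, 6.13 and 1.44 TPM (limma adjusted p = 0.0499, up to 0.168 without wild-type library 3). Cox6a2 kept its call only without wild-type library 2 (0.00718). Siglech, a receptor of plasmacytoid dendritic cells, was at 298, 288, 137 and 784 TPM against 0, 126 and 1.89 TPM and was not called (log2 difference 5.44, SE 1.52, limma adjusted p = 0.117). Cd209d, a lectin gene of the DC-SIGN family, rose from 0, 0.585 and 2.79 TPM to 46.0, 59.5, 24.8 and 91.6 TPM (limma adjusted p = 0.0104). Ly6c2, a monocyte and lymphocyte surface antigen, rose from 19.5, 24.8 and 15.5 TPM to 86.3, 107, 85.2 and 264 TPM (limma adjusted p = 0.0171). Cox6a2, Cd209d and Ly6c2 also passed the minimum through the non-CLL mean only and so had to be higher.

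Leaving out libraries bore on these calls. Gzma and Cd4 kept theirs only without wild-type library 2 (0.0109 and 0.00142) or non-CLL library 5 (0.0449 and 0.0393), and reached 0.112 and 0.0957 without wild-type library 3. Ncr1 and Cd8b1 kept theirs only without wild-type library 2 (0.0228 and 0.00344) and reached 0.120 and 0.0952, and Cd28 kept its call without wild-type library 2 (0.0250) or non-CLL library 5 (0.0496). Nkg7 and Cd209d lost theirs only without non-CLL library 4 (0.0632 and 0.0562). Ly6c2 lost its call without non-CLL library 4, wild-type library 1 or wild-type library 3 (0.0632, 0.0615 and 0.0836). Cd209d and Ly6c2 were still called after background subtraction (0.0423 and 0.0332), and Gzma, Nkg7 and Cd4 were not (0.0711, 0.0606 and 0.136).

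Summed over whole lists, NK markers came to 229 to 926 TPM in the non-CLL and 53.5 to 91.3 TPM in the wild-type libraries, where background alone would give 78.8 to 102 and 0 to 8.20 TPM. Dendritic cell markers came to 545 to 1988 TPM and 66.6 to 436 TPM, with a background of 100 to 129 and 0 to 10.4 TPM. T cell markers came to 625 to 919 TPM and 270 to 885 TPM. Erythroid and platelet markers, at 118 to 171 TPM and 35.0 to 136 TPM, and stromal and endothelial markers, at 193 to 262 TPM and 44.9 to 227 TPM, overlapped between groups. B cell markers summed to 17044 to 34200 TPM in the non-CLL and 30914 to 37807 TPM in the wild-type libraries, with no called gene among 19 tested. The NK and dendritic sums did not overlap between groups, and the part of other cells in the genes that rose was not tested. In bulk RNA, fewer or more cells of a type and less or more RNA per cell cannot be told apart.

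**Figure D3:**
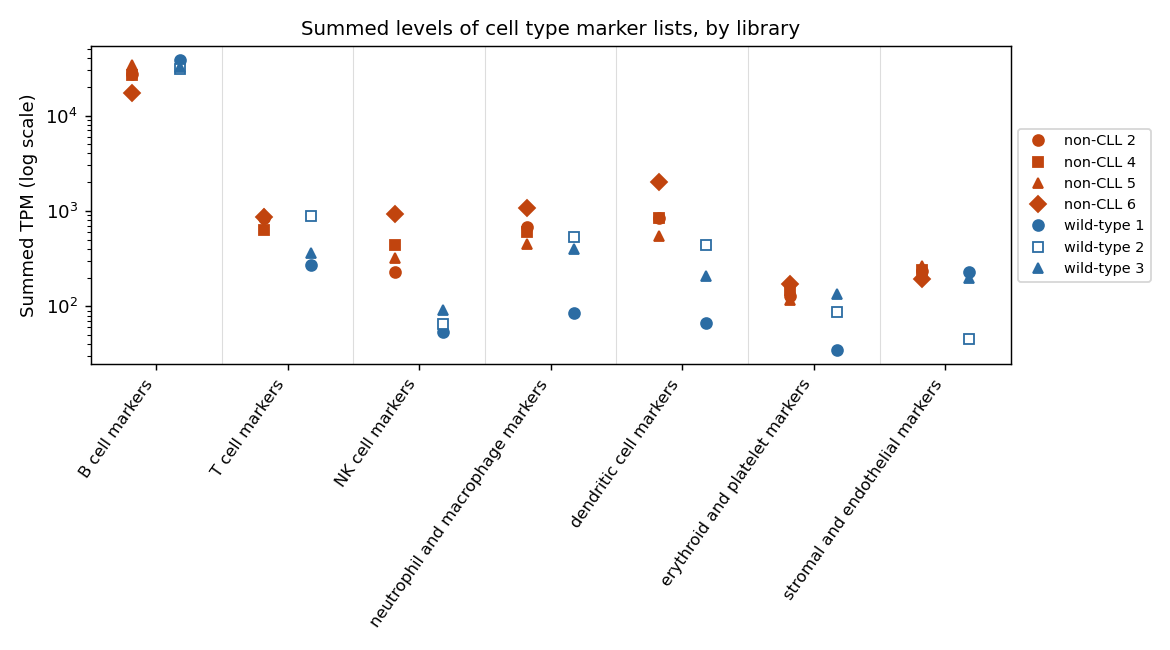
Summed TPM of each cell type marker list, on a log axis, in the 4 non-CLL libraries (orange) and 3 wild-type libraries (blue). The NK and dendritic cell sums are higher in every non-CLL library than in any wild-type library, with library 6 the highest in both, and B cell markers exceed all other lists in every library.

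The most abundant gene that fell was Dnase1l3 (chr14:7965187-7994760), which encodes a secreted nuclease that digests DNA in chromatin and on microparticles. It was at 1063, 1353, 1099 and 1828 TPM in non-CLL libraries 2, 4, 5 and 6 and at 3673, 6335 and 6079 TPM in the wild-type libraries. All 4 non-CLL libraries were below all 3 wild-type libraries, with a 3.99-fold lower level (log2 difference -2.00, SE 0.29, limma adjusted p = 0.0139). The call was lost without non-CLL library 2 (0.0573), non-CLL library 4 (0.0625) or wild-type library 3 (0.0807), and held after background subtraction (0.0379). In the 5 CLL libraries Dnase1l3 ranged from 6215 to 9367 TPM. In the young table it was at 37.2 TPM in wild-type and 32.7 TPM in homozygous B cells, and did not pass the test there (adjusted p = 0.436).

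Cd36, a scavenger receptor and marginal zone B cell marker, was at 25.8, 21.7, 43.8 and 36.3 TPM against 103, 346 and 90.2 TPM. It fell 4.69-fold (log2 difference -2.23, SE 0.46, limma adjusted p = 0.0445), and was called only without wild-type library 2 (0.0139) among the leave-one-out fits, which otherwise gave 0.0532 to 0.111. It was the only call among 14 tested marginal zone markers, whose median was -0.35, beside 0.400% of all tested genes called lower. The complement receptor gene Cr2, another marker of these cells, was at 53.2, 230, 214 and 163 TPM against 1274, 25.4 and 776 TPM, with overlapping groups through wild-type library 2. Rab7, a GTPase of late endosomes, was at 212, 204, 231 and 102 TPM against 581, 646 and 576 TPM (log2 difference -1.74, limma adjusted p = 0.0216, up to 0.0929 without wild-type library 3). Tm9sf2, an endosomal membrane protein, was at 83.9, 78.6, 86.6 and 89.9 TPM against 249, 167 and 272 TPM (log2 difference -1.40, limma adjusted p = 0.0208, up to 0.102 without the same library). Rab7 and Tm9sf2 kept their calls only without non-CLL library 5, non-CLL library 6 or wild-type library 2.

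Among 35 tested proteasome genes 2 fell and none rose, with a median of -0.41. Over all tested genes 0.400% were called lower and 2.25% higher. Psmd11, a lid subunit of the regulatory particle, was at 170, 180, 189 and 197 TPM against 423, 495 and 445 TPM (log2 difference -1.30, SE 0.19, limma adjusted p = 0.0156). Psmd2, a base subunit, was at 308, 298, 322 and 232 TPM against 551, 893 and 534 TPM (log2 difference -1.15, limma adjusted p = 0.0472). Psmd11 reached 0.0831 without wild-type library 3, and Psmd2 kept its call only without wild-type library 2 (0.0407). Ube2v1, a cofactor of ubiquitin-conjugating enzymes, was at 42.4, 37.2, 40.5 and 27.5 TPM against 121, 90.4 and 109 TPM (log2 difference -1.51, limma adjusted p = 0.0207). Tcp1, a subunit of the TRiC chaperonin, was at 231, 247, 405 and 347 TPM against 574, 939 and 695 TPM (log2 difference -1.27, limma adjusted p = 0.0472). Without wild-type library 3 the adjusted p was 0.0929 for Ube2v1 and 0.155 for Tcp1. Psmd11 and Ube2v1 kept their calls only without non-CLL library 5, non-CLL library 6 or wild-type library 2. Tcp1 was called only without non-CLL library 5 or wild-type library 2.

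Cytosolic ribosomal protein genes split: of 53 tested, 4 rose and 4 fell, with a median of -0.04. Over all tested genes 2.25% were called higher and 0.400% lower. The genes that rose were Rpl10, Rpl17, Rpl39 and Rps13, 3 of them through the non-CLL mean only. Rpl10 was at 198, 233, 276 and 314 TPM against 84.2, 150 and 87.7 TPM (log2 difference 1.28, limma adjusted p = 0.0453). Rpl17 was at 37.4, 31.7, 38.6 and 46.0 TPM against 11.4, 13.8 and 11.9 TPM (log2 difference 1.55, limma adjusted p = 0.0225, up to 0.0957 without wild-type library 3). Among those that fell, Rps25 was at 32.1, 35.9, 37.9 and 26.1 TPM against 278, 135 and 103 TPM (log2 difference -2.23, SE 0.34, limma adjusted p = 0.0160). Rps4x was at 34.2, 35.5, 45.1 and 17.5 TPM against 112, 124 and 114 TPM (log2 difference -1.87, limma adjusted p = 0.0214). Rpl7 was at 70.3, 78.3, 129 and 46.4 TPM against 306, 233 and 302 TPM (log2 difference -1.86, limma adjusted p = 0.0225). These genes have near-identical processed copies, so reads may have been split and the values are uncertain. In the young table, Rps25 was at 2840 and 2375 TPM, Rps4x at 2666 and 2311 TPM and Rpl7 at 3894 and 3297 TPM in wild-type and homozygous cells. The remaining large falls were Erh, a small nuclear protein, at 15.5 to 22.9 TPM against 67.4 to 108 TPM (limma adjusted p = 0.0104), Cerkl at 42.0 to 92.5 TPM against 181 to 220 TPM (0.0325), the ATP synthase subunit gene Atp5f1 at 88.1 to 160 TPM against 242 to 310 TPM (0.0281) and Rwdd1 at 13.0 to 25.7 TPM against 41.9 to 52.9 TPM (0.0445). Without wild-type library 3 the adjusted p was 0.0929 for Rps4x, 0.107 for Rpl7 and 0.129 for both Cerkl and Atp5f1, and Rps25 reached 0.0625 without non-CLL library 4. Rps25 also lost its call without non-CLL library 2 (0.0589). Rps4x and Rpl7 kept theirs only without non-CLL library 5, non-CLL library 6 or wild-type library 2. Cerkl, Atp5f1 and Rpl17 kept theirs only without non-CLL library 5 or wild-type library 2. Erh passed the minimum through the wild-type mean only and so had to be lower. Erh lost its call only without non-CLL library 4 (0.0555), and Rwdd1 kept its call only without wild-type library 2 (0.0404).

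**Figure D4:**
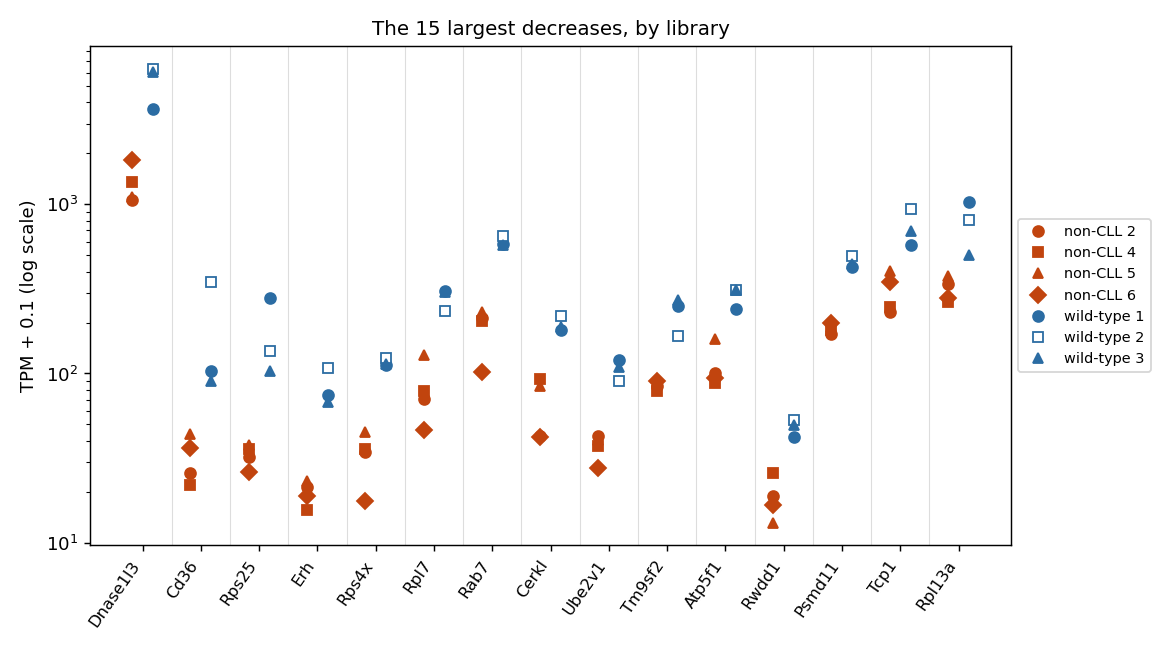
Levels, as TPM + 0.1 on a log axis, of the 15 genes with the largest decreases in the 4 non-CLL libraries (orange) and the 3 wild-type libraries (blue). In all 15 the groups do not overlap, and Dnase1l3 is the most abundant, at 1063 to 1828 TPM against 3673 to 6335 TPM.

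The following 4 lists of B cell regulators held no call in limma at an adjusted p under 0.05. Over all tested genes, 11.4% were higher and 6.24% lower at an unadjusted p under 0.05. Of 23 tested Ikaros family and B cell transcription factor genes, the log2 differences ran from -0.51 to 1.37 with a median of 0.06, and 2 were higher and 0 lower at an unadjusted p under 0.05. Of 34 B cell receptor signalling genes, the median was -0.22 (range -1.05 to 1.11), with 1 higher and 3 lower at that unadjusted level. Of 18 inhibitors of that receptor, the median was -0.16 (range -0.80 to 2.39), with 1 and 0. Of 25 NF-kB subunit and target genes, the median was -0.13 (range -0.92 to 0.85), with 0 and 2. Ptprc, which encodes CD45, was at 491, 745, 781 and 656 TPM against 1058, 830 and 1134 TPM, with groups that did not overlap and no call (log2 difference -0.60, SE 0.24, adjusted p = 0.224).

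B cell subset lists gave few calls, beside 2.25% of all tested genes called higher and 0.400% lower. At an unadjusted p under 0.05, 11.4% of all tested genes were higher and 6.24% lower. Follicular markers (17 tested, median -0.01, 2 higher and 0 lower unadjusted), germinal centre markers (11, median 0.31, 2 and 0), plasma cell markers (14, median -0.19, 0 and 0) and age-associated B cell markers (21, median 0.40, 1 and 2) had none. In the B-1 cell list 5 of 15 tested genes passed the minimum through the non-CLL mean only. Its median was 0.92, with 6 higher and 0 lower unadjusted, and 1 gene rose. That gene was Anxa2, a calcium-dependent membrane-binding annexin that myeloid cells also express, at 154, 57.6, 188 and 147 TPM against 12.0, 18.9 and 30.9 TPM (log2 difference 2.64, SE 0.44, limma adjusted p = 0.0214). Anxa2 lost its call in 4 of 7 leave-one-out fits, with up to 0.0775 without wild-type library 1. Cd5, the defining B-1 and CLL surface marker, was below the minimum, at 10.1, 5.54, 11.2 and 7.39 TPM against 0.377, 0.634 and 1.16 TPM, and its non-CLL levels lie around the background of 7.16 to 9.24 TPM. The interferon list had 1 call of 22, Ifi44, at 24.4, 22.9, 7.95 and 31.6 TPM against 2.48, 1.04 and 1.75 TPM (limma adjusted p = 0.0474). This gene passed the minimum through the non-CLL mean only and so had to be higher. Ifi44 fell under the 20 TPM minimum once background was subtracted, and kept its call without non-CLL library 5 (0.0393) or wild-type library 2 (0.0287), with up to 0.164 otherwise.

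Among 9 genes listed as high in the CLL cells of this series, a list chosen on these libraries and so no independent evidence of its direction, 3 were tested and 1 rose. 1810046K07Rik, also known as Pou2af2 and described as a coactivator of an OCT factor of tuft cells, was at 103, 414, 211 and 124 TPM in the non-CLL libraries and at 11.2, 14.9 and 11.8 TPM in the wild-type libraries (log2 difference 3.76, SE 0.43, limma adjusted p = 0.00726). It passed the minimum through the non-CLL mean only and so had to be higher. It was called in all 7 leave-one-out fits and after background subtraction (0.00612). In the 5 CLL libraries it ranged from 4399 to 7421 TPM, so the non-CLL levels lay between those of wild-type and CLL cells. CLL cells in the non-CLL preparations were not tested as a source.

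The CLL libraries, set beside the others as levels, did not follow one order. Their background differed too, with an olfactory median of 9.66 TPM in CLL library 6 and 1.08 to 2.71 TPM in CLL libraries 1, 2, 4 and 5. Ier2 was at 81.5 to 238 TPM in the CLL libraries, below all non-CLL libraries, and Junb at 70.7 to 167 TPM and Fos at 247 to 676 TPM likewise. For Jun, Fosb, Cd69 and Dusp1 the CLL and non-CLL libraries overlapped. The immediate early list summed to 2150 to 6563 TPM in the CLL and 3384 to 5517 TPM in the non-CLL libraries. Gzma was at most at 10.6 TPM in CLL libraries. These CLL cells were sorted by B220 and CD5, whereas the non-CLL cells were taken with beads.

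Young B cells gave a second comparison that shares no library with the aged one, of 3 homozygous mutant against 3 wild-type libraries from mice labelled 3 months old. It is of another genotype balance and another table, so values were tested only within each table. There 3250 of 6733 genes were higher (48.3%) and 945 lower (14.0%). Of the 169 genes higher in aged non-CLL cells, 45 were tested in young cells, where 24 were higher and 7 lower. Of the 23 with at least 20 TPM in both aged groups, 21 were tested, 14 higher and 2 lower. Of the 30 lower in aged cells, 29 were tested, 8 higher and 8 lower. The first share lies near the young background.

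Named genes showed both patterns. Junb was at 297 TPM in young wild-type and 978 TPM in young homozygous cells (log2 difference 1.75, limma adjusted p = 0.000314), and Jun at 128 and 532 TPM (2.06, 8.3e-07). Cd69 was at 64.5 and 432 TPM (2.73, 1.82e-08), and Ier2 at 147 and 186 TPM (0.34, 0.00291). Rgs1, Rgs2, Pim2, Dnajb9, Snord22 and Snora28 were higher in both ages as well. Both Gzma and Tyrobp, transcripts of other cells, went the other way in young cells, where Gzma fell from 20.7 to 2.02 TPM (log2 difference -2.40, limma adjusted p = 0.0130) and Tyrobp from 482 to 155 TPM (-1.53, 0.0315). The reversal was not confined to such transcripts. Bc1 (-2.36, limma adjusted p = 0.0260), Rpl17 (-0.70, 0.000352) and Gnb2 (-0.22, 0.0493) were also higher in aged and lower in young cells. Ikzf3 was at 246 and 413 TPM in young cells, where it rose (0.75, limma adjusted p = 0.000213). Of the named genes lower in aged cells, Cd36, Erh, Rps25, Rpl7, Rpl13a, Atp5f1 and Rwdd1 were lower in young homozygous cells too. Their young log2 differences ran from -0.48 (Cd36) to -0.24 (Rpl7), with limma adjusted p of 0.0412 or less. In young homozygous cells, 63 of 73 tested cytosolic ribosomal protein genes were called lower. So were 55 of 70 tested respiratory chain genes, a list that holds Atp5f1. Over all genes tested there, 14.0% were lower. Psmd11 and Tcp1, lower in aged cells, were higher in young homozygous cells (0.42 and 0.30, limma adjusted p = 0.00154 and 0.00717).

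**Figure D5:**
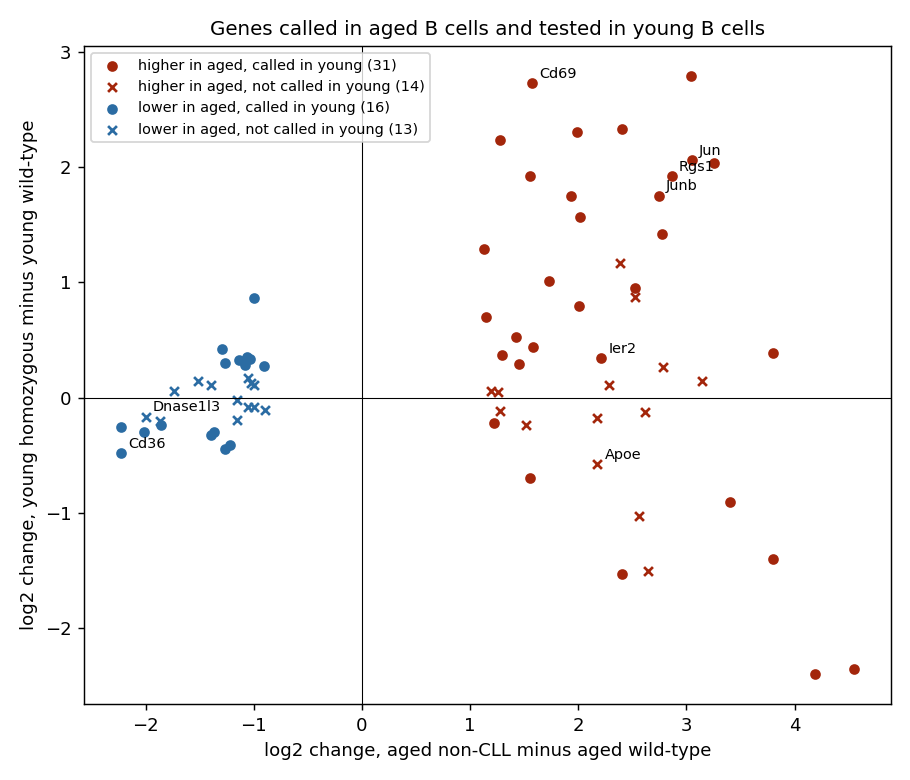
Genes called in aged B cells and tested in young B cells, with the aged log2 difference (non-CLL minus wild-type) on the horizontal axis and the young one (homozygous minus wild-type) on the vertical axis; filled points were called in young cells and crosses were not. Jun, Junb, Cd69 and Rgs1 lie in the upper right, the genes lower in aged cells lie on both sides of 0 in young cells, and Apoe lies below 0 without a call.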

How the data were processed

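RNA-seq of splenic B cells was read from a deposited table of TPM values for the aged libraries and a second deposited table for the young ones, which names no unit and was read as TPM from its column sums. Per the submitters' processing notes, the tools named, without a role, include STAR 2.4.0.1, and the build is mm10; the counting and TPM steps are not stated in these sources. Date-like entries were left out (25 aged, 26 young), as were 887 unnamed young entries. Genes with a mean of at least 20 TPM in either group were fitted as log2(TPM + 1) with limma 3.58.1 in R 4.3.3 (trend, robust, two-sided) and adjusted with Benjamini-Hochberg over all of them. The fit was tested on simulated data. No libraries were identical. A called gene is counted but not reported here. Named genes are Ikzf3, Cd5, Ptprc, the 15 largest changes per direction among calls with separated groups (small nucleolar RNA, microRNA and predicted Gm genes unranked), and up to 4 calls per list with the smallest adjusted p; Jun, Cd69, Fos, Fosb, Zfp36, Myc, Siglech, Sfi1, Rn45s, Snhg1, Apoe, Gnb2, Dnajb9, Tyrobp, Nop56 and Eif5 were added after their values were seen, as were Cd3g, Cd3e, Cr2 and Rpl10. Unranked classes were recognised by symbol, so the small nucleolar RNA AF357355 was ranked. The tallies over 71 named genes leave out Cd5, Zfp36, Myc, Rpl10 and markers given only as levels. Members and lists were chosen with earlier results of these data known. Of 7503 tested genes, 6811 matched RefSeq symbols. Alternatives covered filters, pseudocounts, scaling, weights and left-out libraries.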

Additional observations from a re-analysis of the deposited data

Results flagged for a closer look

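Of 71 named genes, 8 had 1 of the 4 non-CLL libraries far from the other 3, judged by its gap to the nearest library over the group's range. Chance flags about 1 in 20 groups. Library 6, from the homozygous mouse, was high for LOC100861570 (71.8 TPM, others 15.9 to 23.1), 2810442I21Rik (77.2 TPM, others 13.1 to 19.0), Csn1s1 (37.0 TPM, others 22.9 to 25.0), Snord57 (202 TPM, others 95.3 to 107) and Ly6c2 (264 TPM, others 85.2 to 107). Library 4 was high for Ier2 (570 TPM, others 363 to 397) and low for Snord22 (325 TPM, others 398 to 406). Library 5 was low for Jun (146 TPM, others 196 to 198).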

How the results depend on the processing

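Counts of higher and lower genes were 12353 and 328 with at least 1 TPM in at least 3 libraries as the filter, which lets in the low background, 24 and 9 with a mean of at least 20 TPM over all libraries, 8 and 4 with that mean in both groups, 142 and 27 with a pseudocount of 0.5, 134 and 26 with 5, 23 and 5 after background subtraction, 95 and 22 with median-ratio scaling, 21 and 4 after quantile normalization, 855 and 558 with library weights and 258 and 23 without trend and robust estimation. Leaving out 1 library gave 12 to 443 higher and 0 to 140 lower; leaving out non-CLL library 6 and wild-type library 2 together, chosen after seeing the data, gave 358 and 136. The share of calls that were higher was 84.9%, but 60.5% with weights, 66.7% with the minimum in both groups and 72.7% with the mean over all libraries. Immediate early genes called higher were 18 with the 1 TPM filter, 1 with either stricter mean, 2 after background subtraction or quantile normalization, 13 with weights or without both libraries, and 1 to 13 with 1 library left out. The causes of these shifts were not tested. Over 71 named genes and 1217 alternative values, 818 kept direction and side of the threshold, 377 lost the call, 14 gained it and 8 changed sign: Ikzf3 to 0.053 (background subtracted), 0.11 (quantile), 0.20 (weights), 0.20 (without wild-type library 2) and 0.18 (without both libraries), and Eif5 to 0.083 (background subtracted), 0.13 (quantile) and 0.00088 (without wild-type library 3). With 1 library left out the values of Ikzf3 ran from -0.40 to 0.20 and those of Eif5 from -0.36 to 0.00088. No paired analysis was possible because the aged groups share only the number 2. In the young set a replicate block gave 3361 higher and 1051 lower beside 3250 and 945; deviations of same-numbered libraries correlated at -0.06, 0.28 and 0.32, so the numbers were not taken as pairing. Young counts were 1973 and 1888 with median-ratio scaling and 1539 lower with the 1 TPM filter; leaving out 1 library gave 2622 to 3417 and 744 to 1070. Without counts, depth limits cannot be given.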
